A study of Mus musculus with 26 samples.

Results

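The regions described here are the sites of open chromatin that were listed for D1 medium spiny neurons (MSNs) in cocaine relapse (group D1 CC) and for no other group. A D1 CC peak on chromosomes 1 to 19 or X was a member if it shared 0 bp with every peak of the other 7 lists, and 12819 of 77070 D1 CC peaks met this rule (16.6%, exact 95% interval 16.4 to 16.9%). D1 CC was the longest list: with all lists cut to the length of the shortest by q, 1032 peaks (3.7%) met the rule, and in the strongest 50% of D1 CC by fold 1369 did (3.5%). The 12819 peaks are called D1 CC-only below, and the other 64251 D1 CC peaks are called shared. The members were thus chosen by their absence from the other lists, so their number, their gap to other lists and everything that follows peak strength are descriptions with no test. All intervals are exact Clopper-Pearson intervals and cover counting error only.

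Nuclei of mouse MSNs, given as brain in the labels and as nucleus accumbens in the title of the series, were profiled by ATAC-seq, in which a transposase cuts and tags accessible DNA. The 8 groups pair each cell type (D1 or D2 MSN) with a state: SS is baseline, SC acute cocaine, CS prolonged withdrawal after chronic cocaine and CC cocaine relapse. Of 26 libraries, D1 MSNs had 2 in SS, 4 in SC, 4 in CS and 4 in CC, and D2 MSNs had 2, 1, 8 and 1 in the same order. Strain, sex, age, doses, times, the way nuclei were sorted and whether animals were pooled are not given in the sources used here. Each group has 1 peak list with no value per library, so there was no replicate error and no test between groups was possible, and read totals per library are unknown.

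MSNs are the projection neurons of the striatum. D1 MSNs carry the dopamine receptor gene Drd1 and D2 MSNs carry Drd2, and cocaine raises dopamine at both. Active promoters and enhancers lie in DNA that is free of tightly packed nucleosomes, which is the DNA the transposase reaches. Promoters with many CpG dinucleotides tend to be open in most cell types, while enhancers and CpG-poor promoters tend to be open in fewer.

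The D1 CC list was checked against its label and against the other lists before its members were described. A peak lay in the gene body of Drd1 in all 8 lists, and Drd2 held 4 peaks in D1 CC, 0 in D1 SS and 9 in D2 CC. Of 10 D1 MSN markers 10 held a D1 CC peak, and of 10 D2 MSN markers 9 did, so both sets of markers were covered in the list labelled D1. Of 62 markers of astrocytes, oligodendrocyte lineage cells, microglia, vessels, striatal interneurons and cortical excitatory neurons, 36 held a D1 CC peak, against 12 to 26 in the other lists. The other lists held 27898 to 68424 peaks on these chromosomes.

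The lists also differed in a feature that follows neither cell type nor state. Unplaced scaffolds held 101 to 210 peaks in D2 CS, D1 CC, D1 CS and D1 SC, and 39 to 52 in D2 CC, D2 SC, D2 SS and D1 SS, the groups with 1 or 2 libraries. In 28 stretches of the genome, at least 10 neighbouring D1 CC peaks in a row overlapped no peak of those last 4 lists. The stretches together spanned 16.0 Mb and held 505 D1 CC peaks, of which 192 were D1 CC-only and the other 313 were in D1 SC, D1 CS or D2 CS. Absence from 4 of the 7 lists is part of the rule for D1 CC-only peaks, and of all 16287 D1 CC peaks absent from those 4 lists 12819 were D1 CC-only, so the share in the stretches cannot be set against that of all D1 CC peaks. Outside them the D1 CC-only share was 16.5%. The longest row, 52 peaks with 19 D1 CC-only, covered Auts2 on chromosome 5 (chr5:131334387-132601171). Others covered Rims1 (chr1:22211096-22806855), Jakmip3 and Stk32c (chr7:138940469-139312704) and a cluster of near-identical genes around Ccl19-ps3 (chr4:41790889-42845193), in which the gene copy that a short read came from is uncertain. The 4 lists together held 24 peaks within the stretches, beside those D1 CC peaks. Results that rest on them are given with and without them.

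The promoters that carried a D1 CC-only peak were poorer in CpG than the promoters that carried a shared peak. A RefSeq promoter window here runs from 250 bases before to 50 after a start site (GRCm38.p6, the mm10 build), and D1 CC-only peaks overlapped 390 of 32619 windows (1.20%). The 364 windows with D1 CC-only and no shared D1 CC peak held a median of 8 CpG and 55% GC, the 13517 with a shared peak 22 CpG and 62% GC, and the 18738 with no D1 CC peak 3 CpG and 47.7% GC. All 32619 windows had a median of 7 CpG and 53% GC, so the D1 CC-only windows lay near the level of promoters at large. Among shared peaks in the lower 50% of the fold ranks, where most D1 CC-only peaks also lie, the 1946 windows still held 19 CpG and 61.7% GC. The sequences below are those of the protein-coding genes with the highest D1 CC-only fold over such a window and no peak of another list in it, leaving out a member of a near-identical family and a gene inside a stretch described above, followed by 2 interneuron markers. Drd1, whose promoter carried a shared peak, is shown for contrast. Each reads 5′ to 3′ on the strand of the gene, was taken from RefSeq, and has its CpG dinucleotides in capitals.
E2f2: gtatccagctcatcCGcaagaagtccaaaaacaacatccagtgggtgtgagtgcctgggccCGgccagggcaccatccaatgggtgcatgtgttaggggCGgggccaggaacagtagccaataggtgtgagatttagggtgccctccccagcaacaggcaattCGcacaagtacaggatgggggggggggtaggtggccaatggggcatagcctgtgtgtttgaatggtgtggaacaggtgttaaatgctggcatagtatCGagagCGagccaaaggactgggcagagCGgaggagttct
Cln3: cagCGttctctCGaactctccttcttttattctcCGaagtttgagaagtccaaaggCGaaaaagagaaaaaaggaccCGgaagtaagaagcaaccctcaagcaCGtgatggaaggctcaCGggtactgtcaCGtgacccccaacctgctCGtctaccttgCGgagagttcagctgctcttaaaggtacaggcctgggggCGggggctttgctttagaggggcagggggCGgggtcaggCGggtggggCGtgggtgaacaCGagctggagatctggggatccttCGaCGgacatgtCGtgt
Fndc11: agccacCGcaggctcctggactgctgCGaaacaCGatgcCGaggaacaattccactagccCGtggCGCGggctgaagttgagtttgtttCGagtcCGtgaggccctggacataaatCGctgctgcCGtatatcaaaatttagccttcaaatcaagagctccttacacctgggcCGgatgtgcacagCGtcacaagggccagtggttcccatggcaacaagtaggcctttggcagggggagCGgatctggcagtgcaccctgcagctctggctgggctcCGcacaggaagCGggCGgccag
Ndn: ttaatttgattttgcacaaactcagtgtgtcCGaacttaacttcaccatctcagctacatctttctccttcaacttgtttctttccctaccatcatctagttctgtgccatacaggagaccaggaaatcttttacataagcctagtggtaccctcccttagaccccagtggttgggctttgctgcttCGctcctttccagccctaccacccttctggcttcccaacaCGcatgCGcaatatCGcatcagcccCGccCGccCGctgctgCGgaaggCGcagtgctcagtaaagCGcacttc
Sst: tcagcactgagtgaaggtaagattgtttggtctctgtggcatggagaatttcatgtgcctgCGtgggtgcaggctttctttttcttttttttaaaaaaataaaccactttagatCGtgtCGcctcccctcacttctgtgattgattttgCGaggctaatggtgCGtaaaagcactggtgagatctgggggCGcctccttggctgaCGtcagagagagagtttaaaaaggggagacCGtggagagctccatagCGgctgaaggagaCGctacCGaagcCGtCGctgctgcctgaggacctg
Pvalb: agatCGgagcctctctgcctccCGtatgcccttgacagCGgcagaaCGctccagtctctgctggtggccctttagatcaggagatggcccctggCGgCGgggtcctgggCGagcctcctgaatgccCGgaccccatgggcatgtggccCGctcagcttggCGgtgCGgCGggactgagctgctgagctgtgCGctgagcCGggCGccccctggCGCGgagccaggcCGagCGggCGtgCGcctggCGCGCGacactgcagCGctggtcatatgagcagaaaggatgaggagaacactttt
Drd1: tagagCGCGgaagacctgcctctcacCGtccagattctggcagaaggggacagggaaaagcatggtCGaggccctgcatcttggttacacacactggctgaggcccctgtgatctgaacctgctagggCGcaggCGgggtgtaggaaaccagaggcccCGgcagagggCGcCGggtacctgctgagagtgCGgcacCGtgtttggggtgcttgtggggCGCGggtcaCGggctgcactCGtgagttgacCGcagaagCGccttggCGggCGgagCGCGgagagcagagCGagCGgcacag

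E2f2 encodes a cell cycle transcription factor, and its window (chr4:136180532-136180831, plus strand) held 7 CpG and lay to 70.3% under a peak of fold 5.93. That window stands at a RefSeq start site that may lie inside the gene, and whether it is the main start of E2f2 was not checked. Cln3 encodes a lysosomal membrane protein (chr7:126583187-126583486, minus strand), and its window held 18 CpG and lay wholly under a peak of fold 5.79. The window of Fndc11 (chr2:181219784-181220083, plus strand) held 17 CpG, with a fold of 5.74. Ndn, an imprinted gene (chr7:62348027-62348326, plus strand), had 11 CpG and a fold of 5.55. Sst encodes somatostatin (chr16:23890795-23891094, minus strand), and 66.7% of its window lay under a 200-bp peak of fold 3.06. Pvalb encodes parvalbumin (chr15:78204188-78204487, minus strand), and 53.3% of its window lay under a 200-bp peak of fold 3.44. CpG content was not low in each of these windows: Pvalb held 25, more than the 23 of Drd1 (chr13:54055609-54055908, minus strand).

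Motif matches were counted in the same windows. The AP-1 motif TGANTCA, which Fos and Jun proteins bind, was in 44 of 364 windows with only a D1 CC-only peak (12.1%, 8.92 to 15.9%), in 4.42% of windows with a shared peak and in 5.50% of those with a weak shared peak. Windows with no D1 CC peak held it in 10.2% of cases and all promoters in 7.85%, so the D1 CC-only value lay near that of promoters without a peak. The CRE motif TGACGTCA was in 1.37% (0.447 to 3.18%) of D1 CC-only windows, 3.33% of shared ones, 2.62% of those with a weak shared peak and 1.80% of all promoters, and the window of Sst holds it. The E-box CAGCTG was in 19.5% (15.6 to 24.0%), against 14.9% of shared, 17.3% of weak shared and 16.4% of all windows. The motif of CTCF was in 5 D1 CC-only windows (1.37%, 0.447 to 3.18%), against 0.658% of shared and 0.771% of weak shared windows. It was in 0.374% of all windows and 0.149% of those with no D1 CC peak, both below that interval. For CRE, the E-box and CTCF the interval of D1 CC-only windows holds the value of weak shared windows. Both strands were searched, and none of the motifs contains another. A match is a run of letters and not a measured binding site.

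D1 CC-only peaks were mostly weak and, with all deposited peaks used, narrow within their list. The fold enrichment of each peak over the background of the peak caller is the authors' value and is not comparable between lists, so it is given as a percentile within D1 CC. Median fold was 3.63 in D1 CC-only peaks (quartiles 3.24 to 4.02, highest 9.18) and 4.97 in shared peaks, at median percentiles of 22.5 and 57.5. In the lower 50% of the fold ranks lay 89.3% of D1 CC-only and 41.3% of shared peaks, and only 29 D1 CC-only peaks stood in the top 20%. The D1 CC-only share fell from 40.3% of the lowest fold decile to 16.4% of the fifth and 0.0519% of the highest, where 4 of 7705 peaks were in no other list. Of those 29 strongest peaks, 2 lay in the 28 stretches.

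Width followed fold in part. Median width was 242 bp in D1 CC-only peaks (quartiles 210 to 352) and 598 bp in shared peaks. With all lists cut to the 27898 strongest peaks by q, the 1032 D1 CC-only peaks had a median width of 604 bp. The median widths of shared peaks per fold decile, averaged with the D1 CC-only peaks' decile shares as weights, gave 356 bp. The smallest width in the lists, 200 bp, was the width of 13.9% of D1 CC-only peaks and 2.82% of shared ones. The spacing of fold values in D1 CC, 0.191 per fragment, placed the caller's background at 4.23 fragments. At that background, D1 CC-only peaks stood at a median of 19 fragments (quartiles 17 to 21) and shared peaks at 23. These medians cover only peaks with a fold within 0.0005 of a step, 6250 D1 CC-only (48.8%) and 17073 shared (26.6%). They thus describe unlike parts of each set.

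Fold and width followed the number of lists that held a peak. Fold percentile rose from 22.5 in peaks found in no other list to 28.6 in those found in 1 other list, 51.5 in those found in 4 and 85.9 in those found in all 7. Median width rose from 242 to 266, 557 and 846 bp over the same steps. The share at most 1 kb from a transcription start site (TSS) had no such order: it was 12.6% in D1 CC-only peaks, 15.9% in 1 other list, 10.8% in 3, 12.2% in 4 and 55.9% in all 7. The 7849 peaks found in exactly 1 other list were most often in D2 CC (2857) or D1 CS (2459), then D2 SS (1319), D2 SC (896), D1 SC (142), D2 CS (123) and D1 SS (53). The order follows neither cell type nor state alone, and the 3 shortest lists come last.

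**Figure D1:**
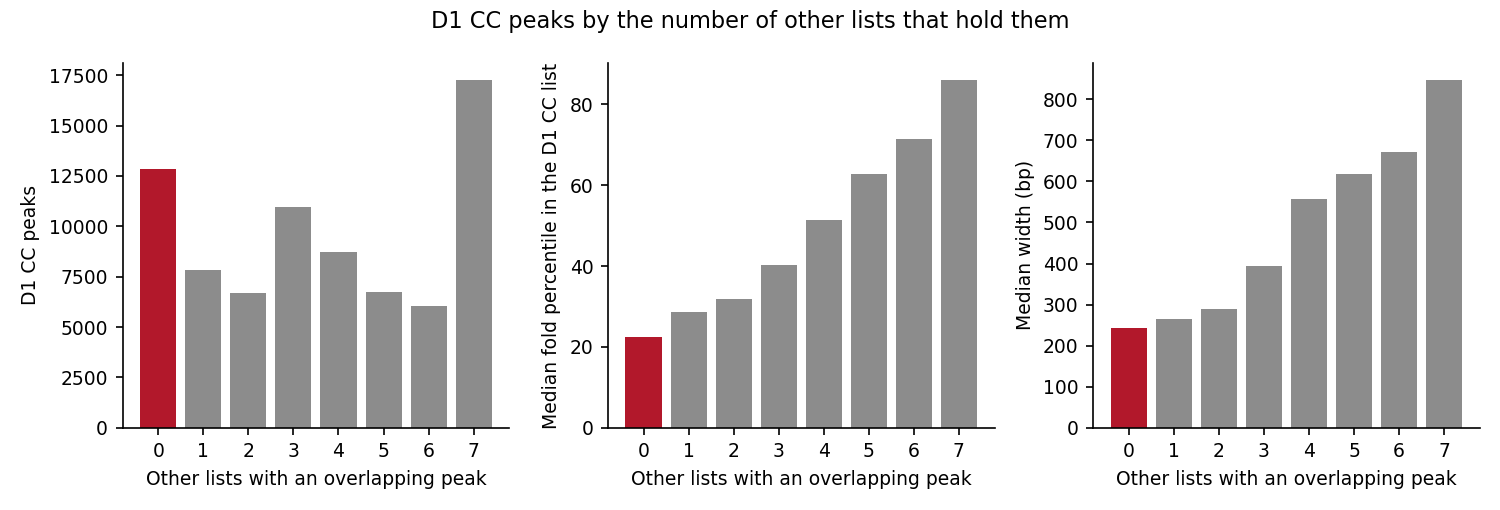
Bars give the number of D1 CC peaks (left), their median fold percentile within the D1 CC list (middle) and their median width in bp (right) by how many of the other 7 lists hold an overlapping peak, with D1 CC-only peaks in red. The 12819 peaks in no other list have the lowest percentile (22.5) and width (242 bp), and the 17241 in all 7 the highest (85.9 and 846 bp).

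Gene bodies held the largest class of D1 CC-only peaks. By the authors' classes, 6032 lay in gene bodies (47.1%, 46.2 to 47.9%), 4052 were intergenic (31.6%, 30.8 to 32.4%), 1620 lay within 1 kb of a TSS (12.6%, 12.1 to 13.2%), 1111 lay 1 to 3 kb from one (8.67%) and 4 were subtelomeric. Shared peaks lay in gene bodies in 37.1%, between genes in 29.9% and within 1 kb of a TSS in 26.4% of cases. With shared peaks weighted to the same fold deciles, these shares were 43.4%, 28.4% and 18.6%. The lower promoter share therefore held at like fold: in the fifth decile it was 8.70% in D1 CC-only and 16.2% in shared peaks. The 250 bp nearest the TSS held 5.85% of D1 CC-only peaks against 20.2% of shared ones (10.6% weighted). The rest of the first kb held 6.79% (6.36 to 7.24%) against 6.15%, and 8.07% after weighting, so at like fold both parts were lower in D1 CC-only peaks.

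**Figure D2:**
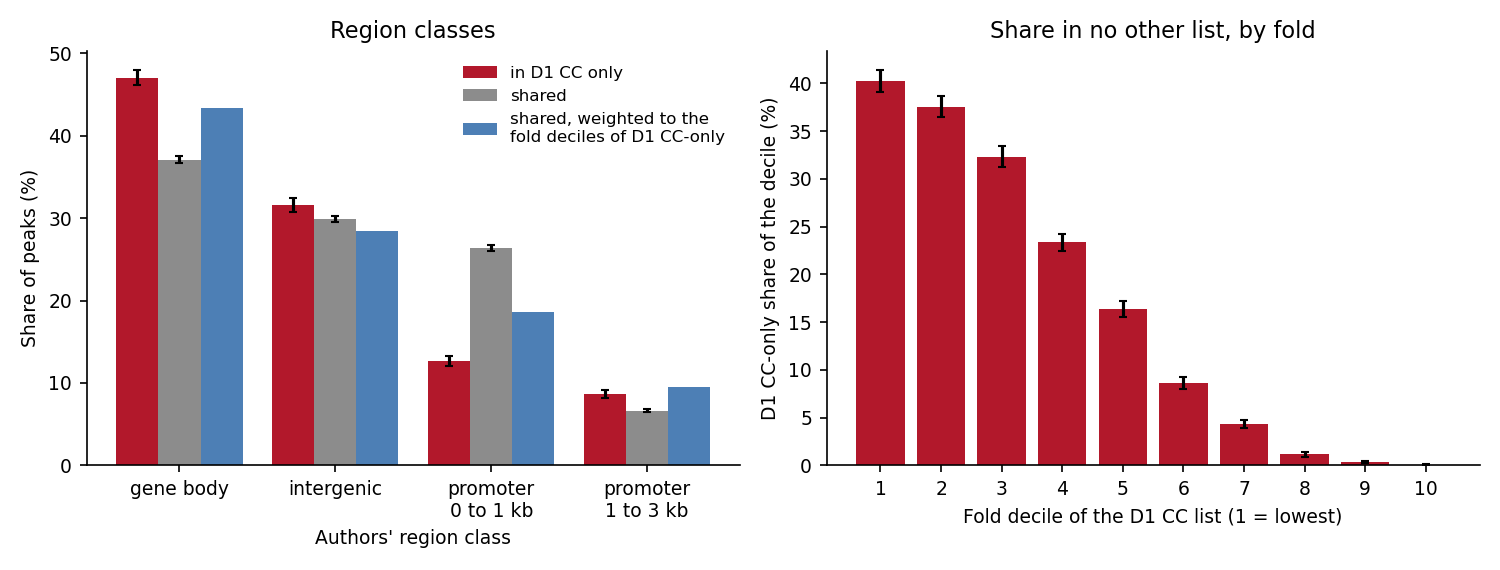
Left: share of peaks (%) in each of the authors' region classes for D1 CC-only peaks (red), shared D1 CC peaks (grey) and shared peaks weighted to the fold deciles of the D1 CC-only peaks (blue), with exact 95% intervals on the first and second. Right: D1 CC-only share (%) of each fold decile, from 40.3% in the lowest to 0.0519% in the highest.

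Distance to the nearest start site was long in both sets. From the peak centre to the nearest RefSeq start, the median was 26683 bp in D1 CC-only peaks (12368 peaks, chromosome 18 not included) and 24340 bp in shared ones. Within 1 kb lay 6.15% against 19.1%, and between 10 and 100 kb 58.2% against 46.4%. For gene-body peaks the authors' distance to the start of the assigned gene had a median of 35059 bp in D1 CC-only and 39930 bp in shared peaks. Along 7912 protein-coding genes of at least 20 kb, D1 CC-only peaks were spread nearly evenly, with 17.9% in the first 20% of the gene from the 5′ end and 20.01 to 21.1% in each further 20%. Shared peaks had 31.9% in the first 20%. The annotation type was protein-coding for 57.3% of D1 CC-only and 60.4% of shared peaks, and lincRNA for 4.35% and 3.82%.

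Of the D1 CC-only peaks, 61.6% had no peak of another list within 5 kb. The rule removes every overlap, and the share for other positions in the genome was not computed, so these values have no background. A peak of another list lay within 5 kb of 4919 of 12819 (38.4%, 37.5 to 39.2%) and within 1 kb of 2462 (19.2%), and the median gap was 7410 bp (quartiles 2058 to 16382.5, largest 666762). D2 CC had a peak within 5 kb of 27.9%, D2 SS of 24.2%, D1 CS of 22.7%, D2 SC of 22.3%, D1 SC of 10.2%, D2 CS of 9.70% and D1 SS of 9.45%. The 3 lists with the lowest shares are the shortest ones. Within D1 CC itself, a shared peak lay within 5 kb of 28.6% and another D1 CC-only peak within 5 kb of 17.0%.

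Near and far members differed in class. Of D1 CC-only peaks within 1 kb of another list's peak, 22.5% lay within 1 kb of a TSS and 26.8% were intergenic. Of the 2467 with a gap of 20 to 100 kb, 9.20% lay within 1 kb of a TSS and 40.8% were intergenic. Median width rose from 225 to 252 bp and median fold from 3.47 to 3.83 between these bins. At the limit of the rule, a 205-bp intergenic peak (chr1:166326642-166326846, fold 3.83) adjoined a D2 SS peak with a gap of 0 bp, and a peak in Serinc5 (chr13:92668059-92668289, fold 3.21) lay 1 bp from a D2 CC peak. Just outside it, peaks in Bmpr2 (chr1:59878149-59878396, fold 3.21) and at the promoter of Fgf22 (chr10:79755034-79755342, fold 3.38) overlapped a D1 CS peak by 1 bp. Only 39 shared peaks had an overlap under 10 bp.

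**Figure D3:**
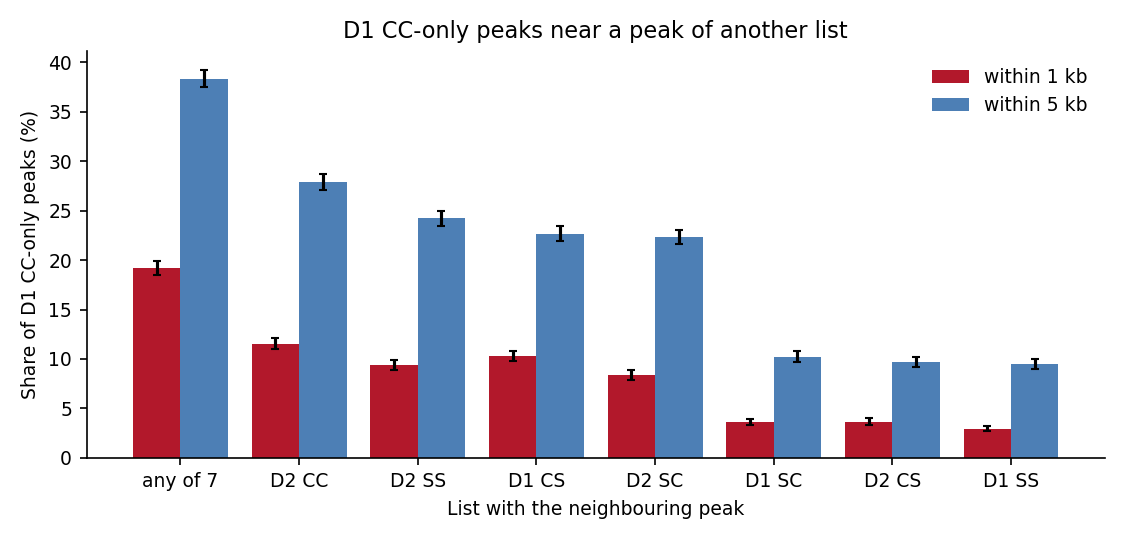
Share of D1 CC-only peaks (%) with a peak of another list within 1 kb (red) or 5 kb (blue), for any of the 7 lists and for each list, with exact 95% intervals. For any list the shares are 19.2% and 38.4%, and single lists run from 9.45% (D1 SS) to 27.9% (D2 CC) within 5 kb.

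Chromosome 7 stood apart from the rest. Of its 3503 D1 CC peaks, 936 were D1 CC-only (26.7%, 25.3 to 28.2%), against 16.2% over the other chromosomes. Chromosome 17 followed with 20.7% and chromosome 9 with 19.3%, and chromosome X (12.1%) and chromosome 3 (13.0%) were lowest. Median D1 CC fold on chromosome 7 was 4.56, within the 4.46 to 4.67 of the other autosomes. Among peaks in the lower 50% of the fold ranks, 45.8% on chromosome 7 were D1 CC-only. On the other chromosomes this share ran from 24.2% (chromosome 3) to 37.1% (chromosome 17). Chromosome 7 peaks of D1 CC were found less often than other D1 CC peaks in D2 CC (56.8% against 73.8%), D2 SS (51.9% against 69.2%), D2 SC (49.96% against 65.9%) and D1 SS (27.1% against 35.9%). They were found slightly more often in D1 CS (59.7% against 54.9%), D1 SC (35.5% against 33.7%) and D2 CS (33.1% against 31.9%). The lists with the lower values are those with few scaffold peaks and 1 or 2 libraries, and the part of this difference in the D1 CC-only share was not tested.

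**Figure D4:**
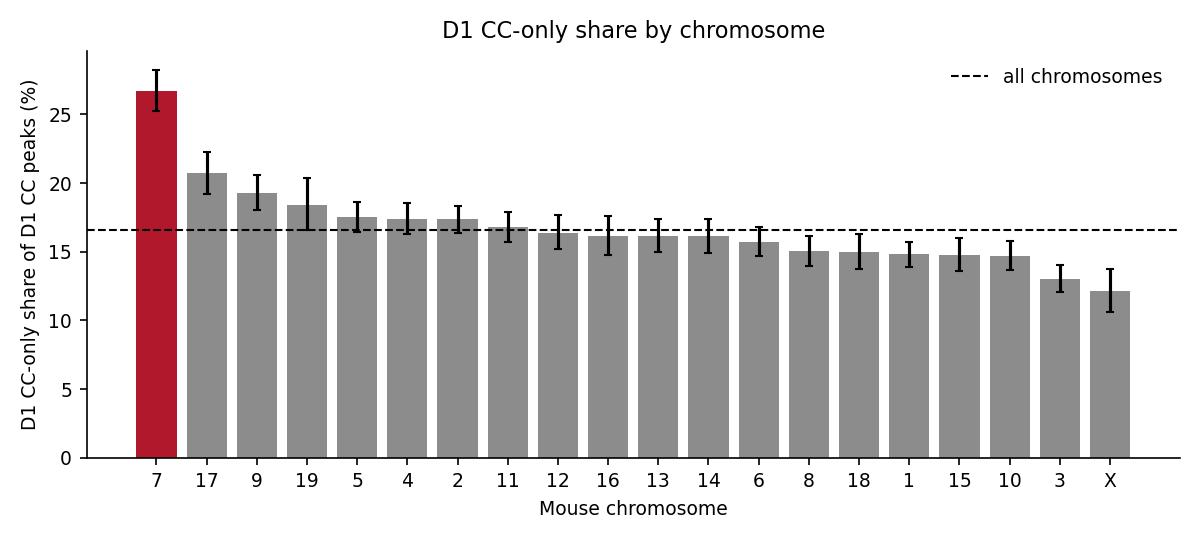
D1 CC-only share of D1 CC peaks (%) on each mouse chromosome in falling order, with exact 95% intervals and the share over all chromosomes as a dashed line (16.6%). Chromosome 7 (red) reaches 26.7% and chromosome X 12.1%.

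The strongest intergenic D1 CC-only peak, chr9:39928672-39929348, had a fold of 9.18, at percentile 96.1 of the list, and no peak of another list within 51005 bp. The next were chr16:88339644-88340298 (fold 8.22), chr13:119333846-119334457 (8.18), chr3:139860955-139861636 (7.84) and chr3:94100075-94100737 (7.62), all 612 to 682 bp wide. Among 3987 D1 CC-only peaks of protein-coding genes with no other-list peak within 5 kb, the highest fold was at the predicted gene 4930578G10Rik (chr4:42734564-42735101, fold 8.03), inside a stretch of near-identical genes. Next came Gm20388 (fold 7.85) and Fam3b, which encodes a secreted cytokine-like protein (chr16:97495950-97496284, fold 7.08). Fam3b held 2 D1 CC peaks and no peak of any other list. A peak in Auts2 (chr5:132458399-132458977, fold 6.96) was also inside a stretch.

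The other 6 peaks of that set were as follows. Tram2, a protein of the endoplasmic reticulum translocation site (chr1:21014315-21014937), Abcc4, a transporter that exports cyclic nucleotides (chr14:118566226-118566816), and Fabp12, a fatty acid binding protein (chr3:10258246-10258837), each had a fold of 6.89. Opcml, a cell adhesion protein of neurons (chr9:28681151-28681887), and Adam10, the protease that sheds Notch and other surface proteins (chr9:70729469-70730002), had 6.69. Adcy2, an adenylyl cyclase that makes cAMP (chr13:68707359-68707949), had 6.50 and lay 98844 bp from the nearest peak of another list. Each of these 6 peaks was a gene-body peak, 29030 to 291887 bp from the start the authors assigned.

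Promoter members were close to other lists' peaks more often than members as a whole. Of the 1620 within 1 kb of a TSS, 555 (34.3%) had a peak of another list within 1 kb, against 19.2% of all members. Their median fold was 3.44. The strongest at named protein-coding genes, after 4930578G10Rik, were Henmt1, a methyltransferase of piRNAs (chr3:108940549-108941503, fold 7.20), and Ak7, an adenylate kinase of cilia (chr12:105718553-105719124, fold 6.87). Henmt1 lay 3 bp from a D2 CS peak. Pramef8 and Xlr3b (both fold 6.12) belong to families of near-identical copies, so their assignment is uncertain. The others by the same order were noncoding or immunoglobulin segments: CT030011.1 (7.27), Gm15941 (6.38), Gm14005 and Igkv9-124 (both 6.31) and Gm18943 (5.96).

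Long genes held the most D1 CC-only peaks. Of 21627 protein-coding genes, 4131 (19.1%) held at least 1 in the gene body: 2557 held 1, 1323 held 2 to 4, 217 held 5 to 9 and 34 held 10 or more. Median gene length was 72.0 kb in genes with a D1 CC-only peak, 22.4 kb in genes with D1 CC peaks but none of this kind, and 756 kb in the 34 genes with 10 or more. Across 13006 genes with a D1 CC peak, Spearman's rho of the D1 CC-only number was 0.46 with gene length and 0.58 with the number of D1 CC peaks. These are descriptions across genes that share 1 list and are not independent replicates. Pooled over genes, 16.6% of the 45845 D1 CC peaks in gene bodies were D1 CC-only, the background for the shares that follow.

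Dlg2, which encodes the postsynaptic scaffold PSD-93, led with 23 D1 CC-only of 59 D1 CC peaks (39.0%, 26.5 to 52.6%). The other lists held 8 (D2 CS) to 30 (D2 CC) peaks in the same gene, so Dlg2 carried open chromatin in each of the 8. Dlg2 and Tenm4 lie on chromosome 7, where 26.7% of D1 CC peaks were D1 CC-only, a value inside the interval of both. Nrxn3, a presynaptic adhesion receptor, held 17 of 68 (25.0%), and Ptprn2, a dense-core vesicle protein, 17 of 70 (24.3%). Dlgap2, a postsynaptic scaffold, held 15 of 56 (26.8%), and Dpp6, an auxiliary subunit of A-type potassium channels, 15 of 64 (23.4%). The intervals of these 4 reach 16.6% or below. The 15 genes named here and below were picked for their D1 CC-only number, which can raise their shares. An interval above 16.6% is therefore no test against the background.

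The RNA-binding splicing regulators Celf2 and Rbfox1 held 14 of 46 (30.4%) and 14 of 64 (21.9%). Tenm4, a teneurin of the synaptic cleft, held 14 of 49 (28.6%), and Camta1, a calmodulin-binding transcription activator, 13 of 31 (41.9%, 24.5 to 60.9%). Kirrel3 and Negr1, adhesion proteins of the immunoglobulin superfamily, held 13 of 39 (33.3%) and 13 of 45 (28.9%), and the acid-sensing channel gene Asic2 13 of 45 (28.9%). The intervals of Rbfox1, Tenm4, Negr1 and Asic2 also reach 16.6% or below. Folds in these genes stayed low, with medians per gene from 3.23 (Ptprn2) to 3.92 (Tenm4). Of the 23 Dlg2 peaks, 17 lay 5 kb or more from any other list, but only 5 of 13 did in Negr1 and 7 of 17 in Ptprn2. D2 CC-only peaks, the counterpart in the other cell type, numbered 1 in Dlg2, 8 in Ptprn2 and 10 in Celf2.

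Auts2 and Rims1 rank among these genes through the stretches described above. Auts2, a gene of neurodevelopment, held 17 D1 CC-only of 48 D1 CC peaks, and the active zone gene Rims1 held 12 of 17 (70.6%). Neither had any peak in D2 CC, D2 SC, D2 SS or D1 SS, whereas D1 CS held 35 and 8, D1 SC 12 and 4, and D2 CS 12 and 5. All of their D1 CC-only peaks lay in the stretches, so without the stretches both counts are 0.

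**Figure D5:**
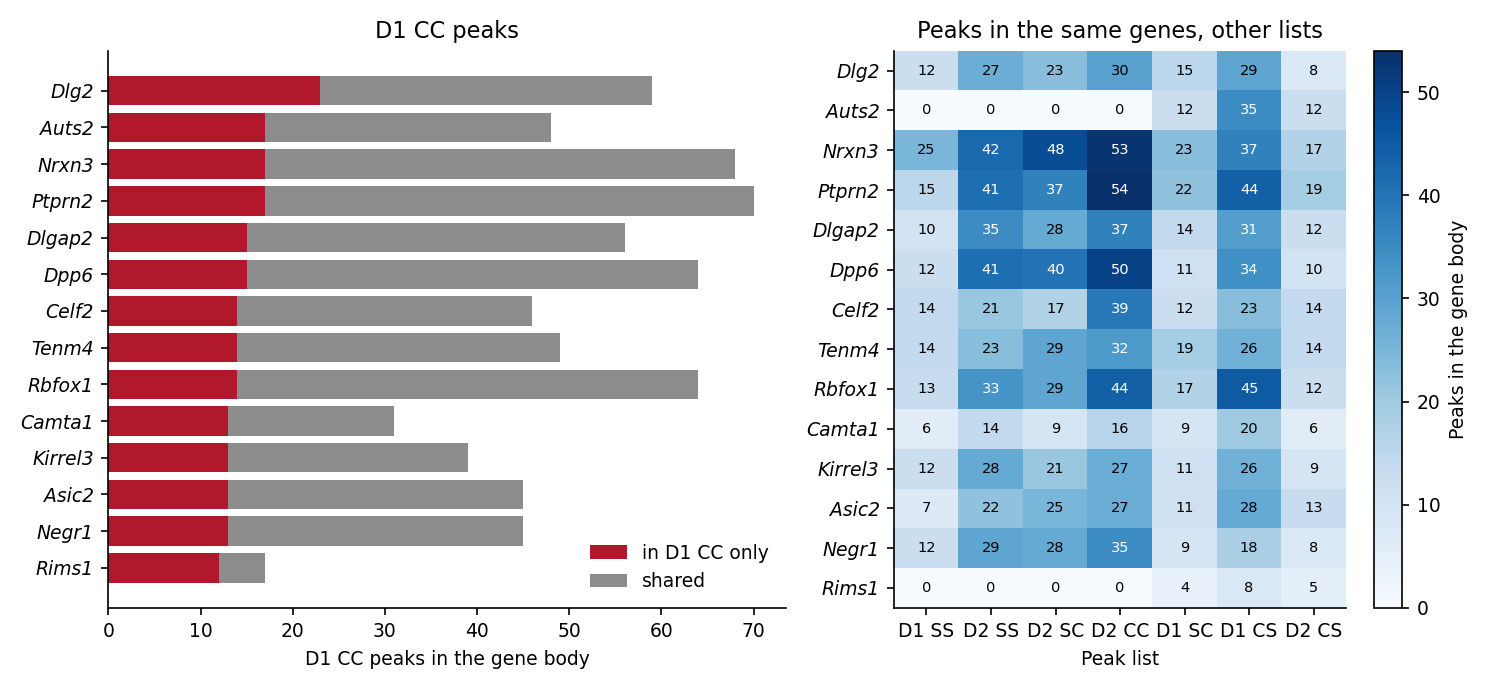
Left: D1 CC peaks in the body of 14 of the 15 protein-coding genes with most D1 CC-only peaks, split into D1 CC-only (red) and shared (grey); right: number of peaks in the same genes in each other list, as coloured cells with the number printed. Dlg2 holds 23 D1 CC-only of 59 peaks, and Auts2 and Rims1 have 0 peaks in D2 CC, D2 SC, D2 SS and D1 SS.

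Among 1011 genes with at least 10 D1 CC peaks, the D1 CC-only share had a median of 16.7% (quartiles 9.09 to 25.0%). The highest were Tox2, an HMG-box transcription factor, with 9 of 12 (interval 42.8 to 94.5%), Rims1 with 12 of 17, Msi2, an RNA-binding protein gene, with 7 of 10, Usp29, an imprinted gene on chromosome 7, with 11 of 16 (68.8%), and the kinase gene Dyrk1a with 8 of 12 (66.7%). D630045J12Rik, Atp10a and Tcerg1l followed with 6 of 10 each, Atp10a and Tcerg1l on chromosome 7 too. Disc1, a scaffold protein gene, held 10 of 17 (58.8%) and Csmd2, a synaptic membrane protein gene, 12 of 21 (57.1%). Rims1 had all of its D1 CC-only peaks in a stretch and Msi2 all but 1, and those of the other genes named here lay outside the stretches. These genes were ranked on their shares, and with few peaks each the intervals are wide. A further 512 genes had a D1 CC peak and no peak centre of another list, 377 of them with exactly 1 D1 CC-only peak. The most were in Vwf, the von Willebrand factor gene of endothelium (6 peaks, folds 3.41 to 5.55), Rbm47, an RNA-binding protein gene (5), Rd3 and Tmem266 (4 each). Rd3 lay in a stretch.

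Genes of MSN identity held D1 CC-only peaks at about the background per peak, but not per gene. At least 1 lay in 60% of D1 MSN markers, 20% of D2 MSN markers and 61.5% of markers of all MSNs. Over all protein-coding genes this was 19.1%. Median gene lengths of the lists were 12.4, 15.25 and 93.7 kb, against 17.3 kb over all genes, and the lists hold 10 to 13 genes each. In D1 MSN markers, 6 of 10 genes held 11 D1 CC-only of 58 D1 CC peaks (18.97%, 9.87 to 31.4%), and in D2 MSN markers 2 of 10 held 4 of 34 (11.8%, 3.30 to 27.5%). Tac1, which encodes substance P, held 2 of 4, both within 1 kb of its TSS (chr6:7555657-7555862, fold 2.85, and chr6:7555941-7556258, fold 2.68) and 222 and 506 bp from a D1 CS peak. Chrm4, the muscarinic receptor gene of D1 MSNs, held its 1 D1 CC peak (chr2:91928824-91929042, fold 2.66) and none in any other list. The promoter of Isl1, a D1 lineage transcription factor, carried 1 (fold 2.47), and Drd1 itself carried none. Within 100 kb, counts at D1 markers ran from 1 of 12 (Slc35d3) to 9 of 28 (Sfxn1), with Drd1 at 7 of 23. Counts at D2 markers ran from 0 of 10 (Drd2) to 5 of 15 (Grik3). These counts were not pooled per list, and flanks of neighbouring genes can hold the same peaks, so the lists are not compared here. Markers of all MSNs held 35 of 197 (17.8%) in 8 of 13 genes. Of these, 9 of 31 were in the phosphodiesterase gene Pde10a and 6 each in Foxp1 and Rarb, the retinoic acid receptor gene.

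Activity-regulated genes were near the background. Of 16 rapid immediate-early genes 3 (18.75%, against 19.1% of all genes) held 1 D1 CC-only peak each, 3 of 21 D1 CC peaks (14.3%, 3.05 to 36.3%). These were Egr2 (fold 2.69, 125 bp from a D2 CC peak), Nr4a3 (fold 2.94) and Ier2 (chr8:84662625-84662847, fold 3.22), and Ier2 had no peak in any other list. Counts within 100 kb of these genes ran from 0 of 15 (Egr1) and 0 of 14 (Jun) to 5 of 12 (Ier2), with Fos at 2 of 12, Fosl2 at 3 of 10 and Fosb at 3 of 21. Delayed activity-regulated genes held 3 of 28 (10.7%), 2 of them in the synaptic scaffold gene Homer1 and 1 in Gadd45g.

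Gene families of the synapse and of ion channels held D1 CC-only peaks below or near the background per peak. Many of these genes are long, with median lengths of 127 to 766 kb per list against 17.3 kb over all protein-coding genes, so the share of genes with at least 1 is not comparable with the 19.1% over all genes. Synaptic adhesion genes held 92 of 636 peaks (14.5%, 11.8 to 17.4%) in 21 of 32 genes, led by Nrxn3 (17), Tenm4 (14) and Tenm2 (9). Axon guidance genes held 52 of 394 (13.2%, 10.0 to 16.9%) in 18 of 25, led by the ephrin receptor gene Ephb1 (11). Glutamate receptor genes held 40 of 302 (13.2%, 9.63 to 17.6%) in 14 of 19, with 10 of 25 in the kainate receptor gene Grik4. Potassium channel genes held 41 of 305 (13.4%, in 12 of 20 genes) and calcium and sodium channel genes 37 of 271 (13.7%, in 12 of 14). Cadherin and protocadherin genes held 34 of 245 (13.9%, in 9 of 20) and GABA-A receptor genes 13 of 83 (15.7%, in 5 of 12). Dopamine and cAMP signalling genes held 42 of 259 (16.2%, in 13 of 18 genes), with 7 in the phosphodiesterase gene Pde4b and 4 in Adcy2. Of 12 housekeeping genes only Polr2a held 1, with 1 of 13 peaks in the list (7.69%).

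Markers of other cell types held a larger share. Over the 6 such lists, 19 of 62 genes (30.6%) held 27 D1 CC-only of 93 D1 CC peaks (29.0%, 20.1 to 39.4%), against 19.1% of genes and 16.6% of peaks over all protein-coding genes. Striatal interneuron markers held 5 of 7 (71.4%, 29.0 to 96.3%) in 4 of 11 genes. These were Sst, Pvalb, Lhx6 and Nos1, the gene of neuronal nitric oxide synthase. Vascular markers held 4 of 11 (36.4%, 10.9 to 69.2%) in 4 of 10 genes, Cldn5, Pecam1, Kdr and Tek. Microglia markers held 3 of 9 (7.49 to 70.1%) in 2 of 10 genes. Cortical excitatory neuron markers held 5 of 18 (27.8%, 9.69 to 53.5%) in 2 of 10. Astrocyte markers held 5 of 20 (25.0%, 8.66 to 49.1%) in 5 of 10. Oligodendrocyte lineage markers held 5 of 28 (17.9%, 6.06 to 36.9%) in 2 of 11. Apart from the interneuron list, each of these intervals holds 16.6%. In Sst, Pvalb, Cldn5 and the astrocyte genes Slc1a3, Aldh1l1 and Aldoc, 6 of the 62, D1 CC was the single list with a peak in the gene body. Over all 21627 protein-coding genes, 512 had D1 CC peaks and no peak centre of another list, 70 of them without a D1 CC-only peak. The D1 CC-only peaks of the 6 marker genes had folds of 3.06 to 4.21 and lay 4748 to 80832 bp from the nearest peak of another list. The part of other cells in the D1 CC-only peaks was not tested, and more cells of a type and more open chromatin per cell cannot be told apart in pooled nuclei.

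The sets most like these peaks differed in class and place. Peaks found in D2 CC only, 5474 of 68424 (8.0%), had nearly the same median width (245 bp) and a lower fold percentile in their own list (16.3). They lay within 1 kb of a TSS in 6.67% (6.02 to 7.36%) of cases, against 12.6% of D1 CC-only peaks, and were intergenic in 36.3%. Chromosome 7 held 7.30% of D1 CC-only and 1.75% of D2 CC-only peaks, against 4.55% of all D1 CC and 3.17% of all D2 CC peaks. Peaks found in 1 list only were on chromosome 7 in 6.45% (D1 CS), 7.08% (D2 CS) and 7.69% (D1 SC) of cases too. In D2 SS, D2 SC and D1 SS they were in 1.35 to 2.15%. Some of these shares rest on few peaks, with 11 of 143 in D1 SC and 2 of 93 in D1 SS. The whole lists split in the same way: chromosome 7 held 4.69 to 4.91% of all peaks in D2 CS, D1 SC and D1 CS. It held 3.14 to 3.45% in D2 SS, D2 SC and D1 SS. The 2459 D1 CC peaks shared with D1 CS alone were wider (345 bp), stood at percentile 31.7 and lay within 1 kb of a TSS in 23.7% of cases. In the other lists, peaks found in no further list made up 0.326% (D1 SS) to 4.21% (D2 SS). These comparisons are between single lists of unequal length and library number, and had no replicate check.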

How the data were processed

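ATAC-seq peak lists, 1 for each of 8 groups with 26 libraries, were analysed. Per the submitters' processing notes, the tools were MACS2, SAMtools, HISAT and cutadapt (no versions named), with mm10 as the genome build. Pooling of libraries before peak calling is not given in the sources used here. The authors deposited for each peak a fold enrichment, which is a ratio over background, and a q-value (at most 0.0453), and its region class, distance and gene. RefSeq promoter windows and start sites leave out chromosome 18. The lists hold 0 columns per library.

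Coordinates were read as 1-based and closed, which makes the smallest peak 200 bp. A peak was shared when it overlapped a peak of another list by at least 1 bp. Fold was ranked within D1 CC, with ties at mid-rank. Shared peaks were also weighted to the fold deciles of the D1 CC-only peaks. A gene held a peak whose centre lay in its RefSeq body (GRCm38.p6, protein-coding genes). Shares have exact 95% intervals. No test was possible with 1 list per group. Depth per library is unknown, and the spacing of fold values gave fragments only for peaks whose fold lay on a step.

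The members and the 20 gene lists (298 genes) were chosen with earlier results of these data known. Named are the 10 strongest isolated peaks of protein-coding genes, the 10 strongest promoter peaks, the 5 strongest intergenic peaks, the 15 genes with most members, list genes and the peaks next to the limit of the rule. Results of some genes that the rule names are left out here. The genes with the highest share and those with D1 CC peaks alone, the stretches absent from 4 lists, the chromosome 7 values and the pooled markers of other cells were singled out after their values were seen. Alternatives covered the overlap rule, q, fold, list length, chromosomes, gene flanks and promoter limits. Overlap steps were tested on simulated data, with 2891 of 2891 intervals recovered. The tools were scipy 1.17.1, pandas 2.3.3, numpy 2.4.6 and, for plots, matplotlib 3.10.9, under Python 3.11.15.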

Additional observations from a re-analysis of the deposited data

Results flagged for a closer look

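The D1 CC list also held 243 peaks outside chromosomes 1 to 19 and X, which the comparisons of members did not use. The shorter baseline list D1 SS held 50. Per 1000 peaks of the list this was 3.14 in D1 CC and 1.75 in D1 SS. It was higher than in D1 CC in D1 SC (3.94), D1 CS (4.46) and D2 CS (4.96), and 0.920 to 1.20 in D2 CC, D2 SC and D2 SS. Of the 243, 210 lay on unplaced scaffolds and 33 on chromosome Y. No peak of another list overlapped 74 of the 243, beside 12819 of 77070 (16.6%) on chromosomes 1 to 19 and X.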

How the results depend on the processing

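No paired analysis was possible because the lists hold no value per library, and for the same reason no library could be left out. Of 90 recomputed main values, 35 stayed within 1.5 times the count or within the interval of the share or median and 55 moved. The values below are given in the order number of D1 CC-only peaks, share of D1 CC peaks, intergenic share, share within 1 kb of a TSS, median width, median fold percentile, share within 5 kb of another list and number of genes, as far as each moved. With a peak within 1 kb counted as shared, the share was 13.4%, intergenic 32.7%, promoter 10.3%, width 248 bp and within 5 kb 23.7%. With 5 kb, the number was 7900, the share 10.3%, intergenic 34%, promoter 10.2%, width 250 bp and within 5 kb 0%, by construction. With reciprocal overlap of 50%, the number was 22096, the share 28.7%, intergenic 33.1%, promoter 13.3%, percentile 25.1 and within 5 kb 64.2%. At q up to 1e-05, the number was 7079, the share 10.9%, width 248 bp, percentile 34.5, within 5 kb 40.3% and genes 2704. In the strongest 50% by fold, the number was 1369, the share 3.5%, intergenic 41.8%, promoter 9.28%, width 299 bp, percentile 56.1, within 5 kb 26.5% and genes 573. On autosomes alone the percentile was 22.7. With all lists at 27898 peaks by q, the number was 1032, the share 3.7%, intergenic 35.9%, promoter 10.1%, width 604 bp, percentile 31.5, within 5 kb 14.7% and genes 520. Within 3 kb of a TSS lay 21.3%.

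The next alternatives were chosen after seeing the data. With absence judged only against D1 SC, D1 CS and D2 CS, the number was 32677, the share 42.4%, intergenic 36.7%, promoter 9.72%, width 262 bp, percentile 28.6, within 5 kb 23.9% and genes 6406. Against D2 CC, D2 SC, D2 SS and D1 SS, the share was 21.1%, intergenic 30.4%, promoter 16.3%, width 253 bp and within 5 kb 31.6%. Without chromosome 7 the share was 16.2%. Without the stretches all 8 main values stayed. For the 15 genes with most D1 CC-only peaks, the counts ran from 0 to 4 in the strongest 50% by fold and from 0 to 2 with lists of equal length. Read totals are unknown, and the part of depth in these values was not tested. The causes of these changes were not tested beyond what each alternative leaves out.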

Other observations

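D1 CC-only peaks overlapped 4 microRNA hairpins of RefSeq, and no share over all hairpins was computed. These were Mir344h-1 on chromosome 7 (fold 4.59, 9358 bp from another list), Mir6974 (fold 3.25), Mir1224 (fold 2.72) and Mir7687 (fold 2.54, 300 bp from another list). The Mir1224 hairpin met its peak only at its last base (chr16:20604536), and the Mir7687 hairpin was covered in part.

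In windows of 2 Mb with at least 30 D1 CC peaks, 1035 in all, the D1 CC-only share had a median of 15.8% (quartiles 10.5 to 20.9%). The highest share, 58.3% (21 of 36), was on chromosome 8 between 20 and 22 Mb, where the authors assign predicted genes such as Gm15319 and Gm21119. Of the 20 windows with the highest shares, 12 lay on chromosome 7. The first of these, at 136 to 138 Mb around the DNA repair gene Mgmt, held 16 of 35 (45.7%). A window on chromosome 9 with Grik4 and Sorl1 held 36 of 95 (37.9%).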
